A study of Mus musculus with 27 samples.

Results

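The entries described here are the 298 rows, of 1842 in a mouse miRNA count table, whose names lack the 5p or 3p suffix that says which arm of the hairpin the small RNA came from. A row was a member when its name carried no arm suffix. Rows of a few families and genomic clusters, and some single entries, were left out by name, which removed 20 of the 318 rows without a suffix. Of the 298 members, 218 passed the filter on low counts and were tested, 80 did not, and each had at least 1 read in the 27 libraries. The filter was run by group, so a member with enough reads in a single group could pass. The rule was applied to names alone, but the members were chosen with earlier results of these data known.

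Small RNA was sequenced from cortex of wild-type C57BL6 mice aged 7 to 8 weeks. The mice had either sham surgery, with the arteries exposed and no filament inserted, or middle cerebral artery occlusion, a stroke model, in which a suture advanced from the carotid closed that artery of the right hemisphere for 35 min. Cortex of the occluded side (ipsilateral) and of the opposite side (contralateral) was taken after 3, 6, 12 or 24 h of recovery, and the groups are written ipsi_3h, contra_3h and so on. The 9 groups hold 3 libraries each, and each replicate number stands for its own day of surgery. Whether both hemispheres of a replicate were taken from the same mouse, or how many mice a library holds, is not stated.

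A miRNA gene is transcribed as a longer RNA that folds into a hairpin. The nuclease Drosha frees the hairpin in the nucleus, and Dicer cuts it in the cytoplasm to a short duplex of a 5p and a 3p strand. Argonaute keeps one strand, and bases 2 to 8 of that strand, the seed, pair with target messages. The registry of miRNAs adds an arm suffix once products of both arms are annotated, so a name with no suffix usually marks an entry with a single annotated product. Many such entries, in particular those with high numbers, were registered from one sequencing study, and few have a described function. An exception among the members is miR-484, a well-studied miRNA whose precursor is made without Drosha.

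RefSeq mature sequences (GRCm38.p6) were found for 254 of the 298 members, and 44 were not matched by name. The first set below is shown because these 10 members rose most in ipsilateral cortex at 24 h among called members above a floor. The floor was a mean of 10 CPM (counts scaled to a common library size) over all 27 libraries. That mean includes the risen ipsi_24h libraries, so it sets no minimum for the contralateral level. For miR-1892 it was 29.4 CPM, while the contra_24h mean was 2.80 CPM. Capitals mark the seed, and each sequence runs 5′ to 3′.
miR-5131: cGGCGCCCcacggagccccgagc
miR-1892: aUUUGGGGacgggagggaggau
miR-8109: gCGCCGCGugccggccgcggg
miR-6538: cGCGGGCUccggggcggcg
miR-1190: uCAGCUGAgguuccccucuguc
miR-8099: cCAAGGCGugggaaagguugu
miR-5130: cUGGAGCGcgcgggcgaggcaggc
miR-5126: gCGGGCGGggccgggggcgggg
miR-3154: cAGAAGGGgagucgggagcgga
miR-1950: uCUGCAUCuaaggauaugguca
No seed is shared by any pair of the 34 called members with a sequence. Among the 10 printed, GC content runs from 40.9% for miR-1950 to 100% for miR-5126, whose sequence holds no A or U.

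The hairpins of these members lie on many chromosomes, mostly inside protein-coding genes (GRCm38.p6 coordinates with GENCODE M21 genes). Coordinates are those of the hairpin, but its place relative to exons and introns, here and below, was read at the mature sequence only. The miR-5126 hairpin, chr1:84695839-84695915 on the plus strand, overlaps an exon of Dner, a Notch-related transmembrane protein of neurons, that runs on the other strand. The miR-6538 hairpin, chr12:26414901-26415010 on the minus strand, is in an intron of Rnf144a, a ubiquitin ligase. For miR-5131 the hairpin is chr14:45657961-45658053 on the minus strand, in a coding exon of Ddhd1, a phospholipase. The miR-1892 hairpin, chr12:54645933-54646012 on the minus strand, and the miR-5130 hairpin, chr14:102982549-102982632 on the minus strand, fall in UTR exons of Sptssa, a subunit of the enzyme that starts sphingolipid synthesis, and of Kctd12, an auxiliary subunit of GABA-B receptors. Those of miR-1190 (chr12:101021673-101021768, minus strand) and miR-1950 (chr19:34965396-34965469, plus strand) are in introns of Ccdc88c and of Kif20b, a kinesin. The miR-3154 hairpin, chr2:32318265-32318343 on the plus strand, is opposite an intron of Dnm1, the neuronal dynamin. The miR-8099 hairpin, chr3:95139060-95139186 on the minus strand, is opposite an exon of Lysmd1, and that of miR-8109, chr8:85700905-85701021 on the plus strand, is outside annotated genes.

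Reads per library ranged from 856591 to 1903416, and members took between 1.57% and 4.82% of them. The highest share was that of ipsi_24h replicate 1, with a 95% Wilson interval of 4.78% to 4.86%, which covers counting error only. The mean share was 3.38% ± 1.26 (SD, n = 3) in ipsi_24h, 1.80% ± 0.20 in contra_24h and 2.17% ± 0.59 in sham. Members were mostly rare: over all libraries 22 averaged at least 100 CPM, 121 lay between 10 and 100 CPM, and 155 were below 10 CPM. Their median level was 9.33 CPM, against 11.4 CPM for the 1524 rows with an arm suffix, of which 16.6% reached 100 CPM against 7.38% of members. Markers of epithelium, summed over 8 miRNAs, reached 29846 CPM in sham replicate 2 and 25487 CPM in ipsi_6h replicate 3, and were at most 961 CPM in each other library. The neuronal markers, summed over 5 miRNAs, ranged from 64764 to 193869 CPM, and none of the 5 was at 0 throughout a group.

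One entry made up a large part of the members' reads. miR-6389 averaged 10065 ± 5072 CPM (SD over 27 libraries, range 1897 to 20807) and held 42.6% of all member counts, from 5.63% to 66.6% in single libraries. Its sequence is set beside those of miR-130a-3p and miR-301a-3p, and of miR-130c, because they begin alike.
miR-6389: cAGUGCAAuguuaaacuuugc
miR-130a-3p: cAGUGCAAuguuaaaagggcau
miR-301a-3p: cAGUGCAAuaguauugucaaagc
miR-130c: cAGUGCAAuguuccaaggugug
All 4 have the seed AGUGCAA, and miR-6389 and miR-130a-3p share an unbroken run of 15 nt. The level of miR-130a-3p was 369 ± 83.2 CPM and that of miR-301a-3p 602 ± 183 CPM, both below that of miR-6389, while miR-130c had 6.1 ± 3.11 CPM. The sources do not state how reads matching more than 1 entry were assigned, which leaves the split among entries of like sequence uncertain.

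The next 9 members by mean level were far below miR-6389. They were miR-3968 (1172 ± 614 CPM), miR-1957a (965 ± 267), miR-6390 (934 ± 228), miR-1195 (606 ± 311), miR-5126 (565 ± 968), miR-5099 (488.1 ± 235), miR-5122 (452 ± 275), miR-484 (374.9 ± 104) and miR-6405 (369 ± 98.4). From miR-3968 down, neighbours in this order differed by less than the larger of their SDs, except miR-6390 and miR-1195. Of these 10, miR-5126 and miR-5099 differed between hemispheres at 24 h and the other 8 did not pass the test. With total counts in place of TMM, miR-1957a passed it (log2 fold change 0.86, edgeR adjusted p = 0.0273). For miR-6389 the contra_24h libraries held 5927, 12263 and 9885 CPM and the ipsi_24h libraries 1897, 7449 and 6539 CPM (replicates 1, 2 and 3), so that the groups overlap, while within each replicate number the ipsilateral library was the lower. Its log2 fold change was -0.82 ± 0.60 (SE, edgeR adjusted p = 0.425). With the day of surgery as a block it was -0.95 (edgeR adjusted p = 0.0587). Against sham at 24 h it was -1.10 (edgeR adjusted p = 0.279), and with the block -1.16 (edgeR adjusted p = 0.0237), which passed the test. Under the block the 1 member called lower against contra_24h was miR-6399 (-0.73, edgeR adjusted p = 0.0159, and 0.151 without the block), named here after its values were seen. For miR-484 the unblocked value was -0.53 ± 0.35 (edgeR adjusted p = 0.372).

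At 24 h of recovery, 39 of the 218 tested members (17.9%) rose in ipsilateral cortex relative to the contralateral side and 0 fell, by edgeR's quasi-likelihood test with Benjamini-Hochberg adjustment over all 1470 rows tested. Over all rows, 11.8% were called higher and 1.43% lower, and among the rows with an arm 129 of 1241 (10.4%) were higher. No test of the difference between these shares was made. Of the 11 tested rows without a suffix that the rule left out, 6 were called higher. Over all 229 tested rows without a suffix, 45 were called higher and 1 lower. The median log2 fold change was 0.28 over the tested members and 0.08 over all rows. With total counts in place of TMM factors these medians became 0.78 and 0.57, and the members called were 48 higher and 0 lower.

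miR-5131 had the largest log2 fold change of the members. Its contra_24h libraries had 37.7, 16 and 9.34 CPM and its ipsi_24h libraries 2151, 531 and 129.8 CPM, giving 5.46 ± 0.82 on the log2 scale (SE, edgeR adjusted p = 4.81e-05). All ipsi_24h libraries were above all contra_24h libraries, and replicate 1 was far the highest of them. miR-6538 had 27.3, 29.5 and 40.9 CPM in contra_24h and 2278, 932 and 379 CPM in ipsi_24h (5.20 ± 0.78, edgeR adjusted p = 4.48e-05). The groups were apart, again with the highest value in replicate 1. miR-5126, the called member of highest mean level, had 118, 75.8 and 138 CPM against 4715, 1562 and 875 CPM (4.43 ± 0.70, edgeR adjusted p = 7.99e-05). miR-1892 had 4.71, 2.53 and 1.17 CPM against 198, 87.5 and 98.9 CPM, where the 3 ipsi_24h libraries were closer together (5.43 ± 0.81, edgeR adjusted p = 4.42e-05).

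**Figure D1:**
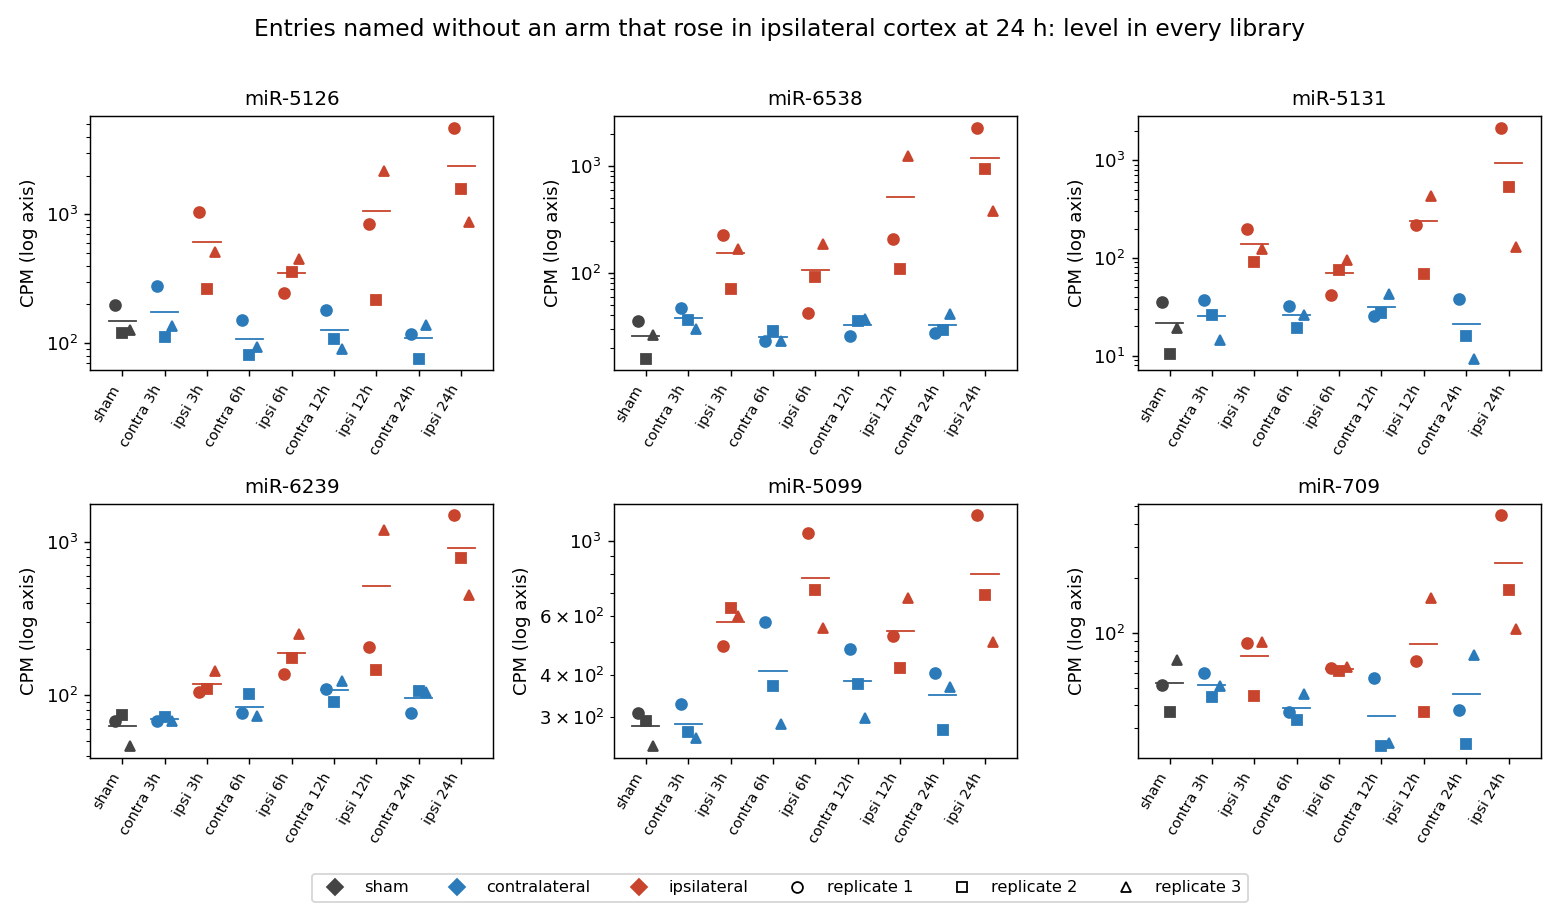
CPM (log axis) of 6 members in each of the 27 libraries, by group, with 1 point per library, its shape giving the replicate number, and a line at the group mean. In each panel the 3 ipsi_24h points lie above the 3 contra_24h points, and the ipsi_24h point of replicate 1 is the highest; miR-6239 and miR-709 were chosen for the plot after their values were seen.

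The other members with large rises had low contralateral levels. The contra_24h libraries of miR-8109 had 2.83, 5.89 and 10.5 CPM and the ipsi_24h libraries 435, 179 and 141 CPM. For miR-1190 they had 14.1, 4.21 and 4.67 CPM and 413, 159 and 67.2 CPM. miR-8099 went from 2.83, 8.42 and 1.17 CPM in contra_24h to 237, 84.8 and 32.5 CPM in ipsi_24h. The groups of these 3 do not overlap, and the contralateral values rest on few reads. miR-5130 had 7.54, 11.8 and 18.7 CPM against 563, 249 and 156 CPM, and miR-3154 had 5.66, 10.1 and 9.34 CPM against 365, 106 and 48.7 CPM. The log2 fold changes of these 5, in the order given, were 5.31, 4.77, 4.72, 4.68 and 4.36, with edgeR adjusted p-values from 7.99e-05 to 0.000461. Smaller rises were measured for miR-1950 (4.03, with an adjusted p of 0.0697 without ipsi_24h replicate 1), miR-711 (3.80), miR-763 (3.68), miR-2137 (3.52) and miR-8098 (3.52). miR-711 lies in a coding exon of Col7a1, the type VII collagen gene, and miR-763 in an intron of Hmga2, a chromatin protein gene. miR-6239, named here after its values were seen, rose from 76.4, 106 and 105.1 CPM to 1492, 786 and 448.1 CPM (3.24 ± 0.55, edgeR adjusted p = 0.000149). miR-709, also chosen so, had 37.7, 24.4 and 75.9 CPM against 447.5, 174 and 105.1 CPM (2.40 ± 0.53, edgeR adjusted p = 0.00194, and 0.050, just over the threshold, without ipsi_24h replicate 1).

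The difference in miR-5099, an abundant entry, was modest. Its contra_24h libraries had 405, 274 and 367 CPM and its ipsi_24h libraries 1195, 691 and 502 CPM, and its log2 fold change was 1.19 ± 0.32 (edgeR adjusted p = 0.0106). The adjusted p was 0.237 without ipsi_24h replicate 1 and 0.0780 without contra_24h replicate 2.

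In 38 of the 39 called members each ipsi_24h library was above each contra_24h library, the exception being miR-5104. Over all tested members 52 (23.9%) had this order, against 16.3% of all rows, and 5 had the opposite order, against 12% of all rows. Replicate 1 was the highest of the 3 ipsi_24h libraries in all 39. Without that library 22 members were called, and 22 of the 39 calls held whichever single library of the comparison was left out. Of the called members, 7 averaged under 10 CPM over all libraries, 26 between 10 and 100 CPM, and 6 at least 100 CPM. In 20 of the 39 the median of the contra_24h libraries was at or under 10 CPM, so their contralateral values rest on few reads. Such members could pass the low-count filter through their risen ipsilateral libraries, which favours rises over falls among rare members. For example, miR-8099 averaged 3.91 CPM in sham and 4.14 CPM in contra_24h, but 21.1 CPM over all libraries.

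**Figure D2:**
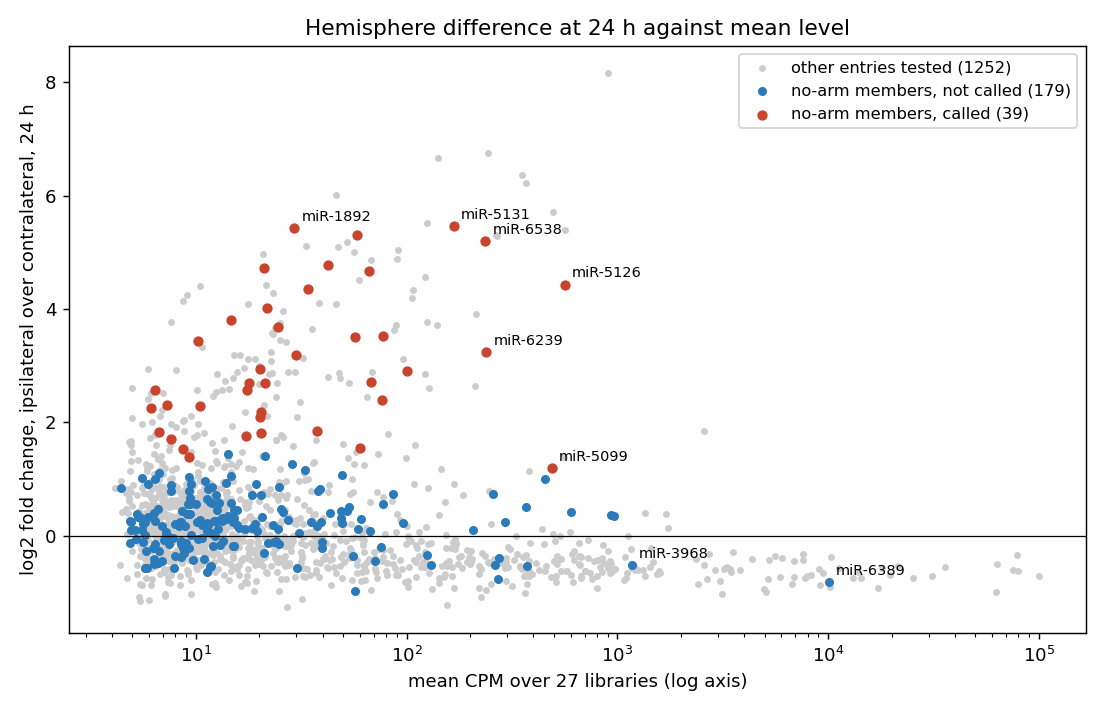
Log2 fold change of ipsilateral over contralateral cortex at 24 h against mean CPM over 27 libraries (log axis), 1 point per tested row, with the 218 members in colour and the other rows in grey. The 39 called members lie above 0 and mostly between 10 and 100 CPM, while miR-6389 and miR-3968, the most abundant members, lie below 0, at -0.82 and -0.52, and were not called.

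At 12 h, 16 of 218 members (7.34%) were higher in ipsilateral cortex and 0 lower, against 4.35% of all rows higher. All 16 were among the 39 called at 24 h. miR-6538 had 25.7, 35.2 and 36.9 CPM in contra_12h and 209, 108 and 1228 CPM in ipsi_12h (3.98 ± 0.74, edgeR adjusted p = 0.00166). The groups were apart, with replicate 3 highest. miR-1190 had 6.42, 6.65 and 4.1 CPM against 38.1, 19.6 and 185 CPM (3.79 ± 0.81, edgeR adjusted p = 0.00527), and miR-1892 had 6.42, 7.6 and 2.73 CPM against 48.3, 16 and 165 CPM (3.72 ± 0.74, edgeR adjusted p = 0.00333). Each pair of groups was again apart. The log2 fold changes of miR-3154, miR-5130, miR-5126, miR-8109 and miR-711 were 3.71, 3.32, 3.08, 2.96 and 2.91. In 15 of the 16 the highest ipsi_12h library was replicate 3, and without that library 0 members were called. Without ipsi_12h replicate 2 there were 28, and without contra_12h replicate 1, 2 or 3 there were 6, 6 and 4. With the day of surgery as a block, miR-8109 (block adjusted p = 0.0700) and miR-763 (0.0592) lost the call.

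At 3 h and 6 h edgeR called 0 members and 0 rows in all, and DESeq2 called 0 members. Members with an unadjusted p under 0.05 numbered 10 (4.59%) at 3 h and 11 (5.05%) at 6 h, near the 3.95% and 4.35% of all rows. The smallest p at 3 h belonged to miR-5131, with 36.9, 25.9 and 14.5 CPM in contra_3h and 199, 91.5 and 123 CPM in ipsi_3h (2.40 ± 0.72, edgeR adjusted p = 0.417). The groups did not overlap. miR-8109 (2.29 ± 0.72, edgeR adjusted p = 0.457) and miR-5099 (1.01 ± 0.32, edgeR adjusted p = 0.457) came next. For miR-5099 the contra_3h libraries had 326.9, 269.6 and 259.5 CPM and the ipsi_3h libraries 488.7, 633 and 599.1 CPM. At 6 h the smallest p belonged to miR-717, in an intron of Gpc3, a glypican gene, with 9.94, 6.44 and 8.77 CPM against 23.9, 12.9 and 19.1 CPM (1.15 ± 0.35, edgeR adjusted p = 0.518), and then to miR-8109 and miR-6538 (2.43 and 2.08). Groups that did not overlap, with ipsilateral higher, were found for 21 members (9.63%) at 3 h and 20 (9.17%) at 6 h, against 6.39% and 7.48% of all rows.

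The 39 members called at 24 h can also be followed as a sum, as a description with no test since they were chosen on the 24 h values. Their summed level lay between 861.9 and 1416 CPM in the 15 sham and contralateral libraries. It was 1739 to 3124 CPM in ipsi_3h, 1984 to 2503 CPM in ipsi_6h, 1469 to 9264 CPM in ipsi_12h and 4014 to 18928 CPM in ipsi_24h. All 12 ipsilateral libraries were thus above all sham and contralateral libraries on this scale, which at 24 h follows from the choice of members. The margin was narrow, with 1469 CPM in ipsi_12h replicate 2 against 1416 CPM in contra_3h replicate 1. Their TMM factors, by which CPM are divided, were 0.676 and 1.285. With total counts in place of TMM the order of these libraries would reverse. Replicate 3 was the highest in ipsi_12h and replicate 1 in ipsi_24h. Such a sum gives most weight to the abundant members. In ipsi_6h, miR-5099 averaged 774.7 CPM and miR-5126 351.5 CPM, against 410.5 and 108.5 CPM in contra_6h.

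Comparisons with sham gave a like set, and share the ipsilateral libraries with those above. At 12 h 16 members (7.34%) were higher and 0 lower, against 4.76% and 0.68% of all rows, and at 24 h 41 were higher (18.8%) and 1 lower, against 11.3% and 1.36% of all rows. Of the 39 members called against contra_24h, 36 were also higher than sham. miR-1946a, miR-5120 and miR-691 were called only against contra_24h, and miR-3961, miR-6347, miR-6380, miR-6406 and miR-8101 only against sham, without a test of that difference. The sham libraries of miR-6538 had 35.7, 15.7 and 26.3 CPM, and its log2 fold change over sham was 4.31 ± 0.75 at 12 h and 5.52 ± 0.79 at 24 h. Over sham at 24 h, miR-5131, miR-3154 and miR-8099 had 5.41, 5.01 and 4.89. At 12 h miR-1892, miR-3154 and miR-711 had 3.95, 3.81 and 3.51. The single member called lower was miR-6371, with 32.4, 44.6 and 31.3 CPM in sham and 15.7, 18.8 and 19.3 CPM in ipsi_24h (-1.01 ± 0.32, edgeR adjusted p = 0.0338), and its groups did not overlap. No member was called lower with total counts, with factors from abundant rows, without the filter, with only the libraries compared, or without sham replicate 2 or ipsi_24h replicate 1 or 3. Without sham replicate 2, which carried the epithelial markers, 26 members were called at 24 h and 4 at 12 h, and without sham replicate 3 there were 7 at 12 h. Leaving out ipsi_24h replicate 1 gave 20 at 24 h, and leaving out ipsi_12h replicate 3 gave 1 at 12 h.

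Between contralateral cortex and sham no difference was detected: edgeR and DESeq2 called 0 members at each time, with 4, 6, 11 and 5 members at an unadjusted p under 0.05 at 3, 6, 12 and 24 h. These are 1.83%, 2.75%, 5.05% and 2.29% of members, near the 1.77%, 2.31%, 4.35% and 2.24% of all rows. Ipsilateral cortex at 3 h and 6 h gave 0 calls against sham with edgeR, and 21 (9.63%) and 15 (6.88%) members had an unadjusted p under 0.05, against 5.85% and 3.67% of all rows. DESeq2 called 4 members at 3 h and 1 at 6 h, and edgeR with the day of surgery as a block called 1 at 6 h, miR-5099.

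Whether the difference between hemispheres itself changed from 3 h to 24 h was tested as an interaction. It called 1 member higher, miR-8099, against 0.816% of all rows. It had 8.6, 6.46 and 3.63 CPM in contra_3h and 10.7, 2.37 and 5.4 CPM in ipsi_3h, which overlap, and the 24 h values given above, which do not. The change in log2 fold change was 4.76 ± 1.12 (edgeR adjusted p = 0.0332), and with the day of surgery as a block its adjusted p was 0.0623. Of the libraries left out in turn, the call of miR-8099 held without contra_3h replicate 3, ipsi_3h replicate 1 and ipsi_24h replicates 2 and 3, and was lost without any of the others. Without ipsi_24h replicate 3 the interaction called 19 members.

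Other rows moved with these members. The rows that by repute match ribosomal RNA (miR-6236, miR-6240, miR-712-5p and miR-712-3p, the 4 of 5 listed that matched a row by name) summed to 80.4 to 163 CPM in sham and 92.4 to 154 CPM in contra_24h, and to 258 to 3842 CPM in ipsi_12h and 1899.2 to 6800.3 CPM in ipsi_24h. Of these 4, 3 were called higher at 24 h. The neuronal markers summed to 105763 to 160480 CPM in contra_24h and 67577 to 100118 CPM in ipsi_24h, and 0 of the 5 was called. Choroid plexus markers (2 miRNAs) summed to 2829.7 to 5328 CPM in contra_24h and 2236 to 2812 CPM in ipsi_24h, muscle markers (3) to 182 to 199 CPM and 82.7 to 122 CPM, and epithelial markers (8) to 443 to 498 CPM and 569 to 961 CPM. The contra_24h and ipsi_24h sums of these 3 lists and of the neuronal list do not overlap on this scale. The epithelial sum was higher and the others lower in ipsi_24h. Of all single rows tested, 16.3% were higher and 12% lower in ipsi_24h without overlap. TMM factors, by which CPM are divided, were 1.18 to 1.43 in ipsi_24h and 0.829 to 0.990 in contra_24h. With total counts in place of TMM the neuronal and choroid plexus sums would overlap. The sums overlap for vessel (15353 to 39521 CPM against 9449 to 16801 CPM), oligodendrocyte (1789.7 to 2517 CPM against 978 to 1790.4 CPM), erythrocyte (186 to 229 CPM against 139 to 195 CPM) and leukocyte markers (618 to 861 CPM against 499 to 777 CPM). No tested miRNA of these 8 lists was called at 24 h, and of the 3 muscle markers 1 was tested. In bulk tissue, fewer cells of a type and less RNA per cell cannot be told apart. The part of these shifts in the members' changes was not tested. The rows whose pattern over 27 libraries was most like that of miR-5126 were miR-1934-5p (Pearson r = 0.974), miR-3960 (0.968), miR-6937-5p (0.960), the member miR-6538 (0.958), miR-7687-3p (0.958) and miR-6968-5p (0.953), which share the libraries and their depth.

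Base composition differed between members that were called and those that were not, as a description and without a test. The median GC content of the mature sequence was 62.8% in the 34 called members with a sequence and 52.4% in 151 tested members that were not called. Among rows with an arm, those called higher had a median of 61.9% and those not called 52.2%. Of 9 tested members with a GC of 80% or more, 6 were called, against 17.9% of all tested members and 11.8% of all rows. The 6 were miR-5126, miR-8109, miR-6538, miR-5131, miR-2137 and miR-5130. Their sequences, as the lines above show for 5 of them, are nearly all G and C. The run GGGG occurred in 29.4% of called and 11.3% of not called members. Neither this run nor the limit of 80% was counted in rows with an arm. Those called higher reached 85.7% GC and those not called 78.3%. Other called members do not have such a composition, among them miR-1950 at 40.9% GC. Across the 185 tested members with a sequence the Pearson correlation of GC content with the hemisphere log2 fold change was 0.468 at 3 h, 0.350 at 6 h, 0.452 at 12 h and 0.463 at 24 h. Without the 9 members of highest GC it was 0.233, 0.105, 0.284 and 0.251. The median log2 fold change of those 9 was 1.67, 1.46, 2.90 and 4.43 at the successive times, with 9, 8, 9 and 9 above 0. Members share libraries, depth and base composition, and no p is given.

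**Figure D3:**
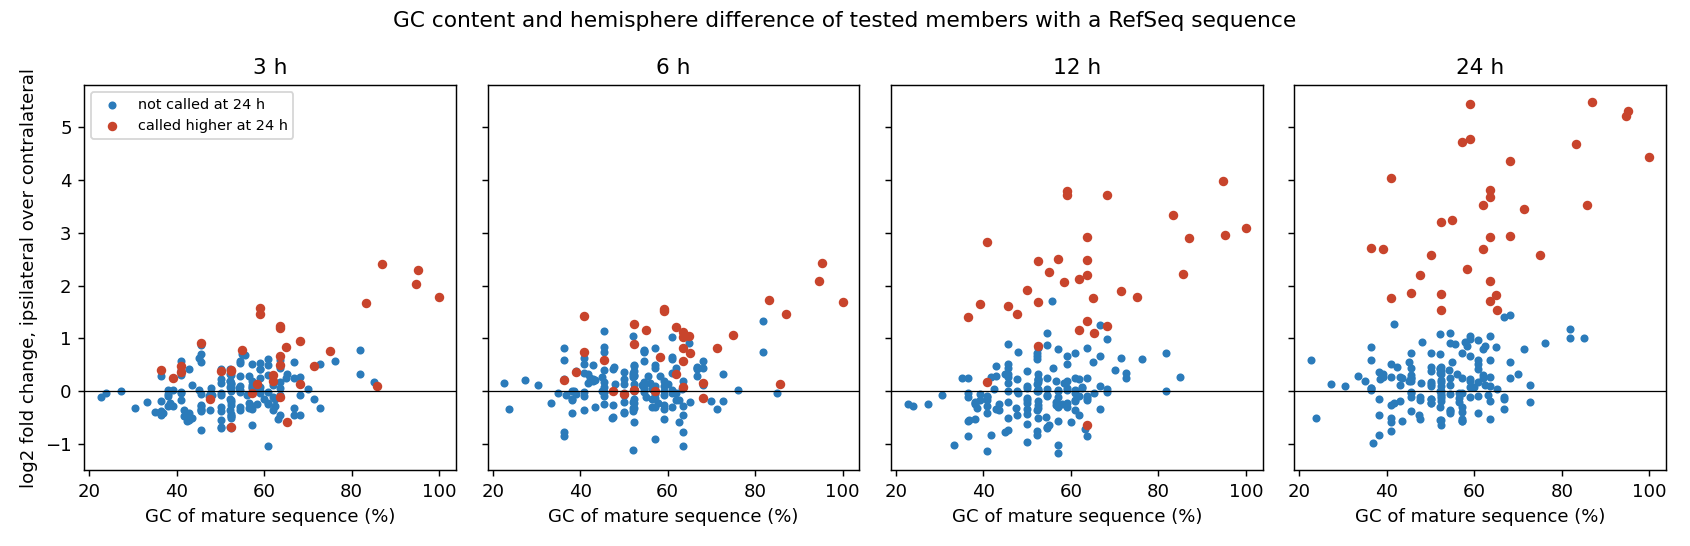
Log2 fold change of ipsilateral over contralateral cortex against GC content of the mature sequence, 1 point per member, in 4 panels for 3, 6, 12 and 24 h, for the 185 tested members with a RefSeq sequence. The 9 members with a GC of at least 80% lie above 0 in nearly every panel, with medians from 1.46 to 4.43, while most other points scatter about 0.

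The mature sequence fell in an intron of the same strand for 85 members (12 called higher at 24 h of 68 tested). It lay outside genes for 68 (6 of 39), in an intron of the other strand for 37 (5 of 25) and in a UTR exon for 24 (4 of 18). For 16 it lay in an exon of a non-coding transcript (2 of 15), for 12 in a coding exon (2 of 11) and for 12 opposite an exon (3 of 9). These places cover the 254 members with a RefSeq hairpin, of which 34 of 185 tested (18.4%) were called, and the other 44 members are not in the split. Counts this small are read only against that 18.4%. Called members were found in most blocks of the registry, with 7 of 25 tested from number 600 to below 800, 6 of 28 from 1900 to below 2000, 7 of 25 from 4000 to below 6000 and 6 of 21 from 8000 on. The largest block, from 6000 to below 6600, held 5 of 65. Of the others, the block below 600 held 1 of 15, and those starting at 800 and 1200 held 2 of 8 and 1 of 6. From 2000 to below 4000 there were 4 of 24, and from 6600 to below 8000, 0 of 1. Over all tested members 17.9% were called higher, and over all rows 11.8%.

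Several members have sequences that are found elsewhere. Exact matches to the mature sequence were present in GENCODE transcripts of over 30 genes for 5 members, miR-3470b (546 genes, the most), miR-3473b, miR-706, miR-3473a and miR-3471 (34 genes, the fewest). Of these, miR-3473b was called at 24 h, with 14.1, 10.9 and 11.7 CPM in contra_24h and 79.9, 29.9 and 20.1 CPM in ipsi_24h (1.82 ± 0.46, edgeR adjusted p = 0.00612, and 0.221 without ipsi_24h replicate 1). The sequences of miR-1291, miR-3535 and miR-5121 lie within small nucleolar RNAs and that of miR-6481 within the mitochondrial tRNA for phenylalanine, each with 0 mismatches. miR-5121 rose at 24 h (2.19 ± 0.51, edgeR adjusted p = 0.00312, and 0.0659 without ipsi_24h replicate 1), and miR-1291 (0.46), miR-3535 (0.23) and miR-6481 (-0.97) did not pass the test. In the table, reads of such an entry and of the other RNA cannot be told apart.

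Families whose names differ by a letter include 20 members, of which 17 were tested. Against 17.9% of all tested members and 11.8% of all rows, 3 of these 17 were called higher at 24 h. They were miR-3473b, miR-1946a (1.39 ± 0.41) and miR-378c (1.84 ± 0.60). Each lost the call without ipsi_24h replicate 1, where miR-1946a had an adjusted p of 0.415 and miR-378c one of 0.397. miR-1946a also lost it without contra_24h replicate 1 (0.113) or 2 (0.0876), and miR-378c without contra_24h replicate 1 (0.160), 2 (0.108) or 3 (0.0810). The tested relatives miR-3473a, miR-3473c, miR-3473d, miR-3473f and miR-3473g had log2 fold changes of 0.90, 0.72, 0.86, 0.20 and 0.56. The values of miR-3470a and miR-3470b were 0.43 and 0.73, and of miR-1957a and miR-1957b 0.35 and 0.18. miR-378d, at 55.5 ± 11 CPM the most abundant of its letters here, had -0.35, and miR-5124a and miR-5124b had -0.22 and -0.17. miR-1946b, miR-3473e and miR-378b were too rare to test.

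Among the members, 9 bear numbers on a fixed list taken to be tissue-restricted, and 5 were tested and 0 called at 24 h. The list was not checked against tissue data here. With 17.9% of all tested members and 11.8% of all rows called higher, 5 are too few to read a share from. The 5 tested were miR-105 (11.9 ± 3.93 CPM), miR-207 (31 ± 6.87), miR-327 (12.6 ± 4.24), miR-759 (53.3 ± 15.1) and miR-873b (6.42 ± 2.83). Their log2 fold changes were -0.54, 0.05, 0.45, 0.51 and 0.26. miR-343, miR-496b, miR-568 and miR-599 averaged from 3.53 to 4.23 CPM and were not tested. miR-105 and miR-767 (49.5 ± 21.4 CPM) were the only pair of members with hairpins within 10 kb, 1406 bases apart on the X chromosome in an intron of Gabra3, a GABA-A receptor subunit gene (chrX:72591500-72591579 and chrX:72589988-72590094, minus strand). The ipsilateral difference at 24 h was -0.54 for miR-105 and 0.22 for miR-767, and neither passed the test.

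Members also shared seeds with rows named with an arm, only some of which are well-known miRNAs. This held for 1 of the 34 called members with a sequence. Of the 254 with a sequence, 48 had the seed of a row with an arm, 23 of them among the 69 members from miR-6335 to miR-6420, and 33 shared a seed with another member, in 13 groups. The seed AGCAGCA of miR-16-5p was carried by miR-195b, miR-6342, miR-6353 and miR-6419, and the seed GGCUCAG of miR-24-3p by miR-5124b, miR-6369, miR-6410 and miR-6413. miR-16-5p averaged 7599 ± 2749.9 CPM, while miR-6342 averaged 19.4 ± 7.64 CPM and miR-6419 7.49 ± 2.67. The relatives of miR-21a-5p are printed because their names share its number.
miR-21a-5p: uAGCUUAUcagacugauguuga
miR-21b: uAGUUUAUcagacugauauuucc
miR-21c: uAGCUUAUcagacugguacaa
miR-21b, at chr3:29636744-29636851 in an intron of Egfem1, averaged 207.2 ± 164 CPM, miR-21c 8.54 ± 4.72 CPM and miR-21a-5p 1712 ± 408 CPM. The seed of miR-21c is that of miR-21a-5p, and that of miR-21b is not.

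The level of many members followed the replicate number, which marks the day of surgery, in a test added after the data were seen. In the model with number as a block, 44 of 218 members (20.2%) differed among numbers, against 25% of all rows. The 6 members given here as examples were picked after their values were seen. miR-21b averaged 407 CPM over the 9 libraries of number 1, 109.8 CPM over those of number 2 and 105.04 CPM over those of number 3 (edgeR adjusted p = 5.94e-07), and number 1 was the highest in 9 of 9 groups. miR-6372 averaged 100.1, 24.2 and 23.4 CPM and miR-8104 166, 38 and 23.7 CPM, also with number 1 highest throughout. The opposite order was measured for miR-6389, at 5531, 14669 and 9995 CPM, where number 1 was below number 2 in 9 groups and below number 3 in 8. It was below both in all 9 for miR-1983 (90.5, 178 and 124 CPM) and miR-484 (265, 436 and 423 CPM). None of these 6 members was called between hemispheres at any of the 4 times.

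**Figure D4:**
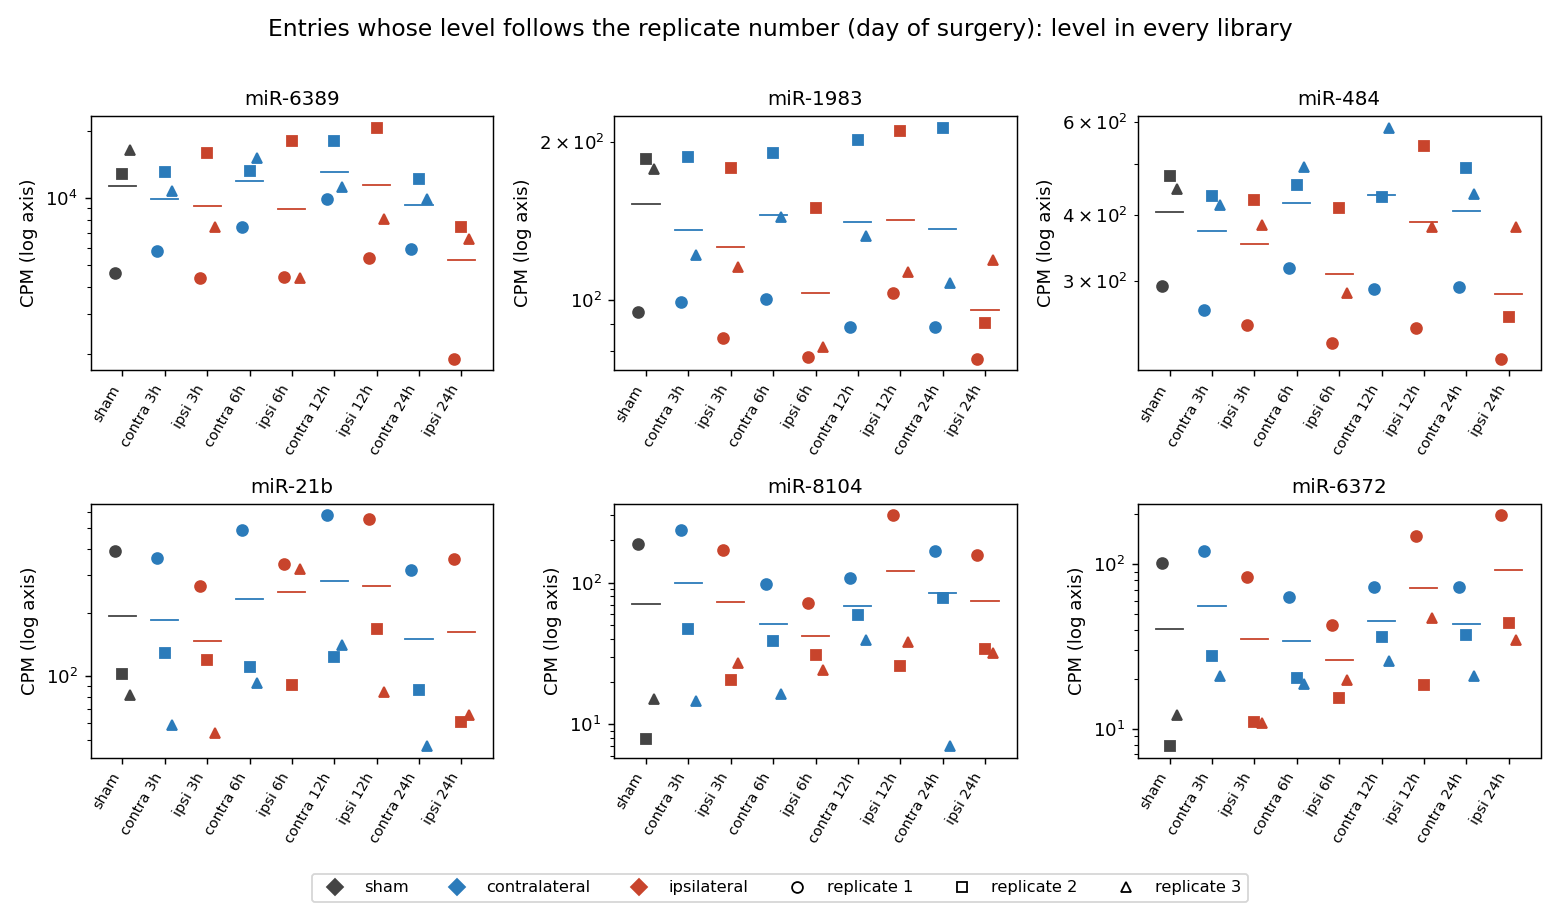
CPM (log axis) of 6 members in each of 27 libraries, by group, with the shape of a point giving the replicate number and a line at the group mean. Circles (number 1) are lowest in nearly every group for miR-6389 and in all for miR-1983 and miR-484, and highest in all for miR-21b, miR-8104 and miR-6372.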

How the data were processed

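The authors deposited 1 table of raw read counts per miRNA entry for 27 small RNA libraries (TruSeq small RNA protocol, inserts of 15 to 35 bp, 69 bp single-end MiSeq reads, per the labels' protocols). The submitters' processing notes list Novoalign and edgeR, with no version or role; build, annotation release and handling of multiply matching reads: not given in the sources used here. Totals were 856591 to 1903416 counts per library, and precision is limited by counts and by 3 libraries a group.

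Counts were tested with edgeR 4.0.16 (R 4.3.3): TMM factors, filterByExpr (1470 of 1842 rows kept, 99.9% of counts), glmQLFit with robust dispersions, and 1 mean per group over all 27 libraries (18 residual degrees of freedom). P-values were adjusted by Benjamini-Hochberg over all tested rows, with a call at an adjusted p under 0.05. CPM are counts divided by a library's TMM-adjusted total; the script was tested on simulated data. Where nothing says that libraries came from separate animals, p-values measure only the spread between these libraries. Members, gene lists and naming rule were chosen with earlier results of these data known. Named members were the 10 most abundant and called members by size, up to 14 per direction at 24 h and 8 at 12 h. These called members had a mean of at least 10 CPM over all libraries. Up to 4 were named against sham and for the interaction, and up to 3 of smallest p at 3 h and 6 h. The letter families, members on the list of names taken to be tissue-restricted, and hairpin neighbours within 10 kb were also named. Other named members fall outside this rule and were chosen with their values known.

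Libraries of the same replicate number share a day of surgery, per the design text. Around their group means, deviations had a mean r of 0.23 over 108 same-number pairs of libraries from different groups and -0.12 over 216 pairs of different numbers. Replicates of a group differed beyond sampling noise (smallest chi-square per degree of freedom 11.2). Alternatives were DESeq2 1.42.0, total counts or abundant rows (at least 100 CPM) for scaling, no filter, a replicate block, a fit to the compared libraries only, and leaving out each library. Sequences and hairpin positions came from RefSeq (GRCm38.p6), and genes from GENCODE M21.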

Additional observations from a re-analysis of the deposited data

Results flagged for a closer look

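The change of the hemisphere difference from 3 h to 24 h of miR-8099 differed from 0 by the interaction test, with 4.76 on the log2 scale (SE 1.12, edgeR adjusted p = 0.0332). Its call was lost with the day of surgery as a block (adjusted p = 0.0623) and when most single libraries were left out.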

How the results depend on the processing

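No called result changed direction under the alternatives run. The 39 calls at 24 h against contralateral cortex ranged from 37 (only the libraries compared) to 48 (total counts), with 41 by DESeq2, and from 22 to 44 with a library left out. At 12 h the 16 calls became 7 with TMM factors from abundant rows, 0 with only the libraries compared (120 members tested), and 0 to 28 with a library left out. At 3 h the 0 calls became 2 with only the libraries compared. Against sham, ipsi_3h gave 4 calls with DESeq2 and 4 with only the libraries compared, and ipsi_6h 1 with DESeq2. The 16 calls of ipsi_12h became 7 with total counts, 6 with abundant rows, 0 with only the libraries compared and 1 to 23 with a library left out. The 42 of ipsi_24h were 20 to 45 with a library left out. The interaction's 1 call became 18 with DESeq2, 0 with total counts, 0 with abundant rows, 9 with only the libraries compared and 0 to 19 with a library left out. The cause of these shifts was not tested, except that a fit to fewer libraries tests fewer members.

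With the replicate block, 14 of the 16 calls at 12 h and all 39 at 24 h held, and the calls at 24 h were 46 higher and 1 lower. Against sham 13 of 16 held at 12 h and 41 of 41 higher calls at 24 h, where 51 were higher and 2 lower. ipsi_6h against sham gave 1 call and the interaction 0. Depth limits the rare members most: 80 of 298 were too rare to test, and the median member count in a library was 4 to 24.5.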
